A study of Homo sapiens with 12 samples.

Results

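The transcripts followed here are 10 secreted cytokines, read in A549, an established line from a human lung adenocarcinoma: the interleukins IL1A, IL1B, IL6, IL11, IL24 and IL32, the leukemia inhibitory factor gene LIF, and the colony-stimulating factors CSF1, CSF2 and CSF3. They were found by symbol among the 61541 genes of the count table, and each of the 10 matched a single identifier. The cells had been transduced 14 days earlier with Cas9 and 1 of 2 kinds of guide. The control cells carried the non-targeting guide gNTC1. In the knockout cells (TS-KO in the labels, gTYMS2 in the column headers) Cas9 was directed at TYMS, which encodes thymidylate synthase, the enzyme that makes thymidylate for DNA synthesis. Each kind was kept by itself or co-cultured, which gives 4 groups of 3 libraries. By the series text, the partner of the knockout cells was parental A549, beside which their growth resumed. The labels name no partner for the co-cultured control cells and do not say how, or whether, partner cells were removed before RNA was taken. All groups were kept in high-glucose DMEM with 10% FBS, and the column headers name a single guide for each arm. The replicate numbers are not said to be separate cultures, so the p-values measure the spread between libraries, which may be technical.

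These genes act as messengers between cells. IL1A and IL1B signal through the IL-1 receptor and its accessory chain to NF-kB, a factor that in many epithelial cells switches on IL6, CSF2 and CSF3. IL6, IL11 and LIF use receptors that share the chain IL6ST (gp130) and signal through JAK kinases and STAT3. CSF1, CSF2 and CSF3 drive the growth of macrophages, of granulocytes with macrophages, and of neutrophils, and epithelial tumour cells can secrete them.

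Libraries held between 14921371 and 35723762 counts, so 1 count was worth 0.0298 to 0.0619 CPM, the unit of depth-scaled counts used here (TMM scaling). TYMS, the targeted gene, averaged 95.4 and 93.4 CPM in lone and co-cultured control libraries and 20.8 and 11.04 CPM in lone and co-cultured knockout libraries. Keratins were abundant everywhere (the 6 epithelial markers summed to 8349 to 17760 CPM), whereas the lung lineage markers NKX2-1, NAPSA, SFTPB and SFTPC together gave at most 2.37 CPM. Single epithelial markers differed between lone control and lone knockout. EPCAM averaged 103.8 and 0.620 CPM, CDH1 55.8 and 17.5 CPM, and KRT19 1738 and 254.7 CPM. KRT8 (7161 and 3723 CPM) and KRT18 (3053 and 2260 CPM) were also lower in the knockout, and KRT7 was higher (1908 and 5946 CPM). The libraries labelled control went against 1 known feature of A549, the deletion that removes CDKN2A, CDKN2B and MTAP. CDKN2A averaged 99.2 CPM and MTAP 59.5 CPM in the lone control, against 0 and 0.581 CPM in the lone knockout and 0.0397 and 0.471 CPM in its co-culture. "Control" below therefore means the libraries so labelled, and each comparison with them carries this difference. None of them enters the group means of the contrast between the 2 knockout groups. They do bear on its filter, scaling and spread, which come from all 12 libraries. Library replicates also differed along transcript GC content: across 16505 genes, the rank correlation of a library's deviation from its group mean with GC ran from -0.772 in replicate 3 to 0.753 in replicate 2 of the co-cultured knockout. Fold changes between groups ranked with GC as well. Their rank correlation with GC was 0.446 for co-cultured against lone knockout and -0.380 for co-cultured against lone control. For knockout against control it was -0.396 alone and -0.108 in co-culture. For the difference between the 2 co-culture effects it was 0.547.

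The first question was how the cytokines stood when knockout cells grew beside parental cells rather than alone. Of the 9 members that could be tested, 8 rose in the co-cultured knockout (edgeR adjusted p under 0.05) and 0 fell, where 5.97% of all 16768 tested genes rose, 5.4% fell and 11.4% changed in either direction. The 9 log2 fold changes had a median of 2.10, beside 0.01 over all genes. CSF2, CSF3, IL1B and IL6, which were scarce in lone knockout cells, rose most, and CSF1, IL11 and LIF, which were already abundant, rose by 1.65-fold to 1.94-fold. In these 8 members the 3 co-cultured libraries lay above the 3 lone ones without overlap, which held for 16.7% of all tested genes. The 8 were called again when only the 6 knockout libraries entered the fit, so that no control library bore on the spread. No lone knockout library reached the count cutoff for testing in CSF2 or CSF3. In that fit these genes could thus be tested only through the co-culture, where they are high. Calls over all genes were divided less evenly when libraries were scaled by size only, with 69.7% of them higher against 52.5% under TMM, and the same 8 members were called.

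**Figure D1:**
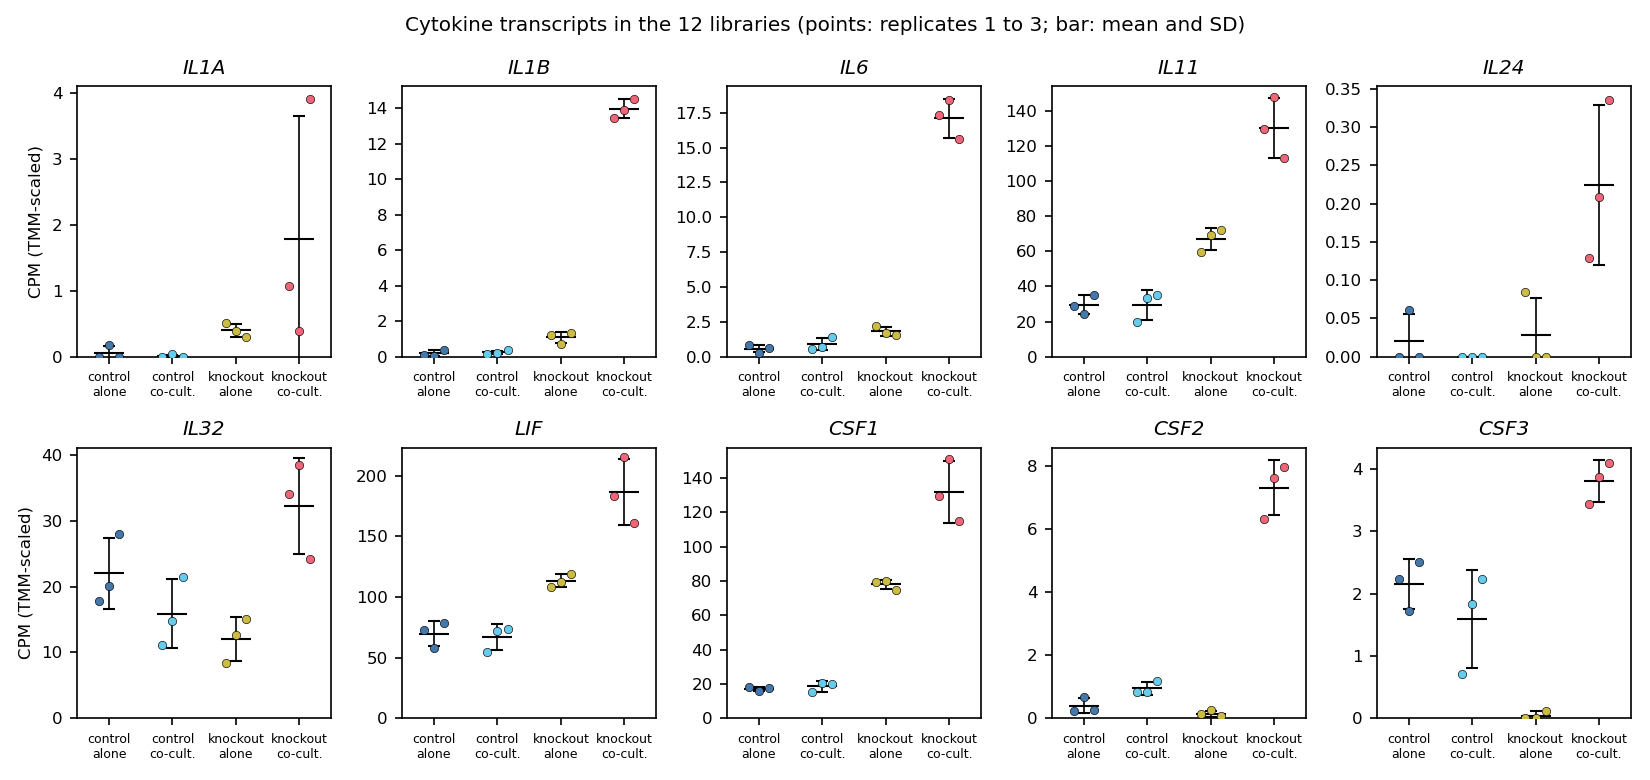
TMM-scaled CPM of the 10 cytokine transcripts on linear axes that start at 0, by group. Points are replicates 1 to 3 from left to right, and bars give the mean and SD. The co-cultured knockout libraries lie above all others in 8 panels. In the panel of IL1A its replicate 2, at 0.387 CPM, lies among the lone knockout libraries, and in that of IL32 its replicate 3, at 24.2 CPM, lies below a lone control library at 28.1 CPM.

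Among the colony-stimulating factors, CSF2 (GM-CSF; ENSG00000164400, GRCh38 chromosome 5, 132073790 to 132076170, plus strand) was counted 3, 5 and 1 times in the lone knockout libraries and 147, 256 and 214 times in the co-cultured ones. That is 0.146 ± 0.0953 CPM (SD, n = 3) against 7.31 ± 0.867 CPM (SD, n = 3), a log2 change of 5.57 (SE 0.42, adjusted p = 1.33e-05 in edgeR). CSF3 (G-CSF; ENSG00000108342, chromosome 17, 40015361 to 40017813, plus strand) was counted 0, 0 and 2 times in the lone and 80, 130 and 110 times in the co-cultured knockout. Because the lone group held 2 counts in all, the size is given as the ratio of pooled counts per scaled depth, 115-fold with an exact 95% interval of 31.6 to 955 that covers counting error only (adjusted p = 9.61e-05 in edgeR). CSF1 (M-CSF; ENSG00000184371, chromosome 1, 109910242 to 109930992, plus strand) went from 79.4, 79.7 and 74.7 CPM to 129, 151 and 115 CPM (log2 change 0.76, SE 0.14, adjusted p = 0.00634 in edgeR). The low genes of this family thus differed by far more than their replicates, and CSF1 by 1.69-fold at a much higher level.

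IL1B (ENSG00000125538, chromosome 2, 112829751 to 112836903, minus strand), which is made as a precursor that caspase-1 cleaves, was counted 29, 15 and 22 times in the lone and 313, 468 and 390 times in the co-cultured knockout. Its level was 1.10 ± 0.314 CPM (SD, n = 3) alone and 13.99 ± 0.530 CPM (SD, n = 3) in co-culture, a log2 change of 3.66 (SE 0.34, adjusted p = 5.94e-05 in edgeR). IL1A (ENSG00000115008, chromosome 2, 112773915 to 112784590, minus strand), which is active without that cleavage, did not pass. It stood at 0.507, 0.398 and 0.304 CPM alone and at 1.08, 0.387 and 3.91 CPM in co-culture (log2 change 2.10, SE 0.75, adjusted p = 0.087 in edgeR). Replicate 3 of the co-culture was high and replicate 2 lay within the lone range. IL1A entered the test through 3 knockout libraries above the count cutoff, and its result moved with that replicate: the log2 fold change was 0.77 (adjusted p = 0.339) without replicate 3 and 2.60 (adjusted p = 0.0257) without replicate 2. With offsets for GC content it was 2.51 (adjusted p = 0.00218).

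The 3 cytokines that signal through gp130 all rose. IL6 (ENSG00000136244, chromosome 7, 22725884 to 22732002, plus strand) was at 2.20, 1.69 and 1.58 CPM in the lone and at 17.3, 18.4 and 15.6 CPM in the co-cultured knockout (log2 change 3.22, SE 0.33, adjusted p = 0.000107 in edgeR). IL11 (ENSG00000095752, chromosome 19, 55364389 to 55370463, minus strand) was at 59.7, 69.0 and 72.0 CPM alone and 129.5, 147.6 and 113.3 CPM in co-culture (log2 change 0.96, SE 0.21, adjusted p = 0.0128 in edgeR). LIF (ENSG00000128342, chromosome 22, 30240447 to 30246851, minus strand), a cytokine known for holding stem cells undifferentiated, was at 108, 113 and 119 CPM alone and 183, 215 and 161 CPM in co-culture (log2 change 0.72, SE 0.16, adjusted p = 0.0156 in edgeR). IL6 stayed called without any single library, whereas the calls of IL11 and LIF, at 1.94-fold and 1.65-fold, did not. IL11 missed without replicate 1 or 2 of the lone knockout or replicate 1 of the co-culture (adjusted p = 0.0672, 0.0519 and 0.0515). LIF missed without these (0.0732, 0.0668 and 0.0596) and without replicate 2 of the co-culture (0.0666).

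IL32 (ENSG00000008517, chromosome 16, 3065297 to 3082192, plus strand), a proinflammatory cytokine without a close relative among the interleukins, went from 8.46, 12.6 and 15.1 CPM to 34.1, 38.5 and 24.2 CPM (log2 change 1.42, SE 0.29, adjusted p = 0.0095 in edgeR). Without replicate 1 of the lone knockout its adjusted p was 0.0505. IL24 (ENSG00000162892, chromosome 1, 206897443 to 206904139, plus strand), a member of the IL-10 family, was too rare to be tested. It was counted 2, 0 and 0 times in the lone and 3, 7 and 9 times in the co-cultured knockout, a pooled ratio of 6.84 (exact 95% interval 1.65 to 60.6, counting error only). Exons of IL6 overlap those of STEAP1B and AC073072.1, exons of LIF those of LIF-AS1 and AC004264.1, and exons of IL32 those of RNU1-125P. The strand setting of the counting is not given in the sources used here, so reads of these pairs may not have been kept apart. In bulk RNA, more transcript per cell and more cells that make it cannot be told apart.

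Of the cell type markers, 2 leukocyte markers moved the same way: CD14 was at 0.865 and 3.25 CPM and CD68 at 0.892 and 2.98 CPM in lone and co-cultured knockout cells, and both rose (adjusted p = 0.00563 and 0.00637 in edgeR). The 8 leukocyte markers summed to 1.76 to 1.86 CPM in the lone and 5.48 to 8.01 CPM in the co-cultured knockout. Between the control groups the sum went the other way, from 4.25 to 6.55 CPM alone to 2.31 to 4.56 CPM in co-culture. There CD14 averaged 4.76 CPM alone and 2.63 CPM in co-culture, and CD68 0.134 and 0.191 CPM. Markers of other cell types also moved between lone and co-cultured knockout cells, in both directions. KRT19 averaged 254.7 and 445.5 CPM and CDH1 17.5 and 23.9 CPM, but KRT8 3723 and 3108 CPM and KRT18 2260 and 1591 CPM. The 5 fibroblast markers summed to 21.65 to 24.44 CPM in the lone and 12.67 to 16.65 CPM in the co-cultured knockout. The defining T-cell gene CD3E was at 0 counts in all 12 libraries, and PTPRC, the common leukocyte antigen CD45, had at most 1 count in any. TYMS fell further with co-culture of the knockout (log2 change -0.92, SE 0.11, adjusted p = 0.000307 in edgeR). A share of partner RNA in the co-cultured libraries was not tested as a part of the cytokine differences.

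The promoters of the called members are shown next, since these genes rose together. RefSeq starts on GRCh38.p14 were given for 7 of the 10 members (IL1A, IL1B, IL6, IL11, IL24, IL32 and CSF2), and 250 bases before each start were searched on both strands for AP-1 (TGANTCA), CRE (TGACGTCA), C/EBP (TTGCNNAA) and NF-kB sites, and on the gene's strand for TATAAA. Lines give the gene's strand 5′ to 3′ with matches in capitals. They stop at the first GENCODE 29 exon of the gene within the window, so IL1B, IL6 and IL32 are shorter than the window searched. GENCODE 29 starts IL6 further upstream, at 22725884, so its line lies inside the annotated gene. The coordinates are chr5:132073539-132073788 (plus) for CSF2, chr2:112836904-112837029 (minus) for IL1B, chr7:22726950-22727146 (plus) for IL6, chr19:55370464-55370713 (minus) for IL11 and chr16:3065153-3065296 (plus) for IL32.
CSF2: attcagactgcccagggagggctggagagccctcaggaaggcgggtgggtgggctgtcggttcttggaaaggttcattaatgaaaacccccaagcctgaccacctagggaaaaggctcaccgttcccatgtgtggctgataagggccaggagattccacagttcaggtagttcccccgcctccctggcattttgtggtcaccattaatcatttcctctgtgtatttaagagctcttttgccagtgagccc
IL1B: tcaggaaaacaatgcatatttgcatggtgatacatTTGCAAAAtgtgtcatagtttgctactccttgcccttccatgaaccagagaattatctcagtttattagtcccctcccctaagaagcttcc
IL6: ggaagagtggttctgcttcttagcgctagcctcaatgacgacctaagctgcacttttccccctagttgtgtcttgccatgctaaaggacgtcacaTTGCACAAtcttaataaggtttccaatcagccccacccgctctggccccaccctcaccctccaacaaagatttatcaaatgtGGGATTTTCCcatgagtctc
IL11: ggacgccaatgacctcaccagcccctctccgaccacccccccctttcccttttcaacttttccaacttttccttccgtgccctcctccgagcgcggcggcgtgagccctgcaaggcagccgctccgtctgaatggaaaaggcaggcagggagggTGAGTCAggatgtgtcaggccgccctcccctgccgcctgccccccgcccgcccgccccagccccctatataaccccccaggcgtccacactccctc
IL32: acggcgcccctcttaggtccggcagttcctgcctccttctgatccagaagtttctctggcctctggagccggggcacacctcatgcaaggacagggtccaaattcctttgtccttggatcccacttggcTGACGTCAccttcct

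The 5 promoters of jointly rising genes shared no single match. The C/EBP motif was found in IL1B and IL6, TTGCAAAA and TTGCACAA, and in 9.05% of the 35116 RefSeq promoters searched the same way. NF-kB matches lay in IL6, GGGATTTTCC, and in IL32, GGGAGTTTCC, past the stretch printed for the latter and overlapping a second match on the other strand. They occur in 5.21% of promoters. IL11 held the AP-1 letters (6.57% of promoters), as did both listed starts of IL1A, and IL32 held the CRE (1.65%). TATAAA was found upstream of the second IL1A start only, beside 6.80% of all promoters. CSF2, with the largest fitted rise among members counted in every lone library, and IL24 held none of these letter strings in this window. The matches describe letters and were not tested as sites.

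**Figure D2:**
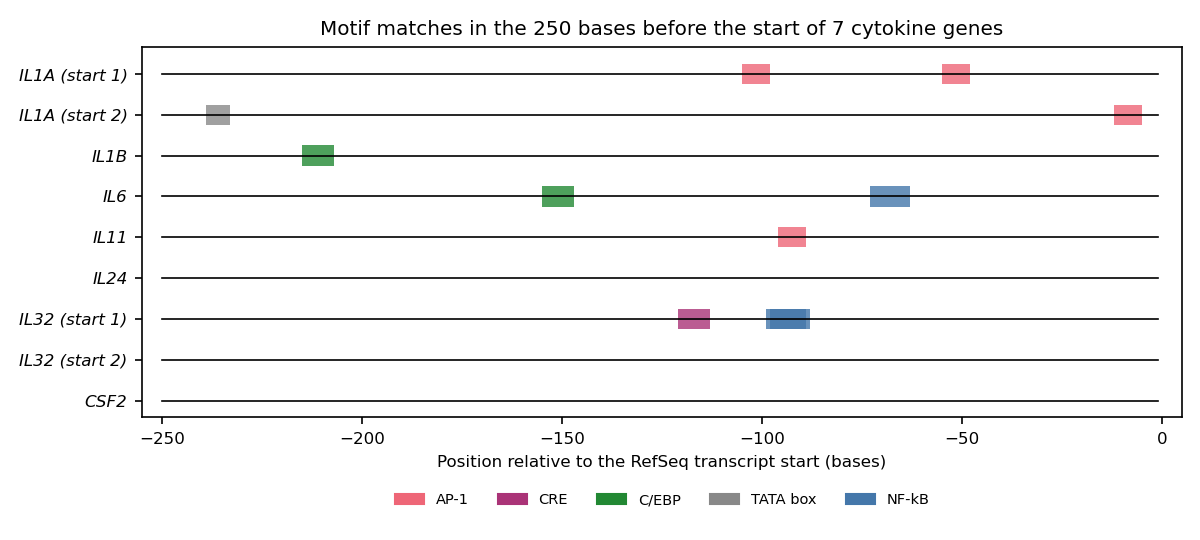
Motif matches in the bases before the RefSeq start of 7 cytokine genes, with the distance from the start in bases on the horizontal axis and 1 line for each start. Coloured blocks are letter matches, and the lines of IL24, CSF2 and the second IL32 start carry none.

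The next comparison set knockout against control cells, both grown alone. In lone knockout cells 5 members were higher (CSF1, IL1B, IL6, IL11 and LIF) and 3 lower (CSF3, CSF2 and IL32), and IL1A was not called. Among all tested genes 28.0% were higher and 28.6% lower, 56.6% together, so a call was common here for any gene. CSF1 rose from 296, 260 and 322 counts to 1877, 1602 and 1229 counts (log2 change 2.17, SE 0.15, adjusted p = 1.18e-07 in edgeR). IL1B rose from 2, 1 and 7 counts to 29, 15 and 22 counts (2.46, SE 0.47, adjusted p = 0.000701 in edgeR, and 3.47 without replicate 3 of the control) and IL6 from 14, 5 and 11 to 52, 34 and 26 counts (1.62, SE 0.38, adjusted p = 0.00302 in edgeR). IL11 was higher by 1.17 (SE 0.21, adjusted p = 0.000423 in edgeR) and LIF by 0.70 (SE 0.16, adjusted p = 0.00271 in edgeR).

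CSF3 fell from 36, 28 and 46 counts in the lone control to 0, 0 and 2 in the lone knockout, a pooled ratio of 65.3-fold lower (exact 95% interval 17.6 to 546, counting error only, adjusted p = 1.9e-05 in edgeR). IL32 fell by 0.87 on the log2 scale (SE 0.29, adjusted p = 0.0203 in edgeR), from 17.8, 20.1 and 28.1 CPM. CSF2 was called lower at -1.38 (SE 0.54, adjusted p = 0.0436 in edgeR), but its counts of 4, 11 and 5 in control and 3, 5 and 1 in knockout overlap, and the call was lost with library size only (adjusted p = 0.0723), with no low-count filter (0.0589), and without replicate 2 of the control (log2 change -0.79, adjusted p = 0.321) or replicate 1 or 3 of the knockout (0.123 and 0.116). The IL32 call was lost without replicate 3 of the control or replicate 1 of the knockout (0.0841 and 0.0881). IL1A had 0, 3 and 0 counts in control and 12, 8 and 5 in knockout, a pooled ratio of 7.02 (exact 95% interval 2.14 to 36.3) with an adjusted p of 0.0984 in edgeR and 0.0336 in DESeq2. IL24 had 1 and 2 counts in all in these groups.

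Between co-cultured knockout and co-cultured control cells, 9 of 9 tested members were higher, where 24.1% of all tested genes were higher and 49.4% changed. In all 9 the groups did not overlap, as for 26.9% of all genes. IL1B stood at 13.5, 13.9 and 14.5 CPM against 0.178, 0.229 and 0.366 CPM (log2 change 5.70, SE 0.40, adjusted p = 1.57e-07 in edgeR). IL6 was higher by 4.19 (SE 0.35, adjusted p = 7.76e-07 in edgeR), CSF2 by 2.93 (SE 0.33, adjusted p = 9.59e-06 in edgeR) and CSF1 by 2.83 (SE 0.15, adjusted p = 1.58e-08 in edgeR). IL11 and LIF differed by 2.14 and 1.48, and IL32 by 1.02 (adjusted p = 3.68e-06, 9.21e-06 and 0.00933 in edgeR). CSF3, at 12, 48 and 55 counts in control and 80, 130 and 110 in knockout, differed by 1.22 (SE 0.39, adjusted p = 0.0184 in edgeR), and by 0.90 (adjusted p = 0.0681) without replicate 1 of the control. IL1A was counted 25, 13 and 105 times in knockout and 1 time in the 3 control libraries together, a pooled ratio of 115.6 with an exact 95% interval of 20.4 to 4596 for counting error only. Replicate 3 gave 105 of those 143 counts, and the fitted log2 value of 6.45 became 5.11 without it and 8.26 without replicate 2 of the control, which held the 1 count. IL24, which the filter kept out of the test, had 19 counts in all in the co-cultured knockout and 0 in the co-cultured control, where 3 counts would have been 0.115 to 0.178 CPM. A separate fit of 38159 genes with no low-count filter called it higher there (adjusted p = 0.00374 in edgeR), which is not added to the 9. IL1A and IL1B had passed the filter through knockout libraries alone, where they are high, so the count of 9 depends in part on the filter.

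**Figure D3:**
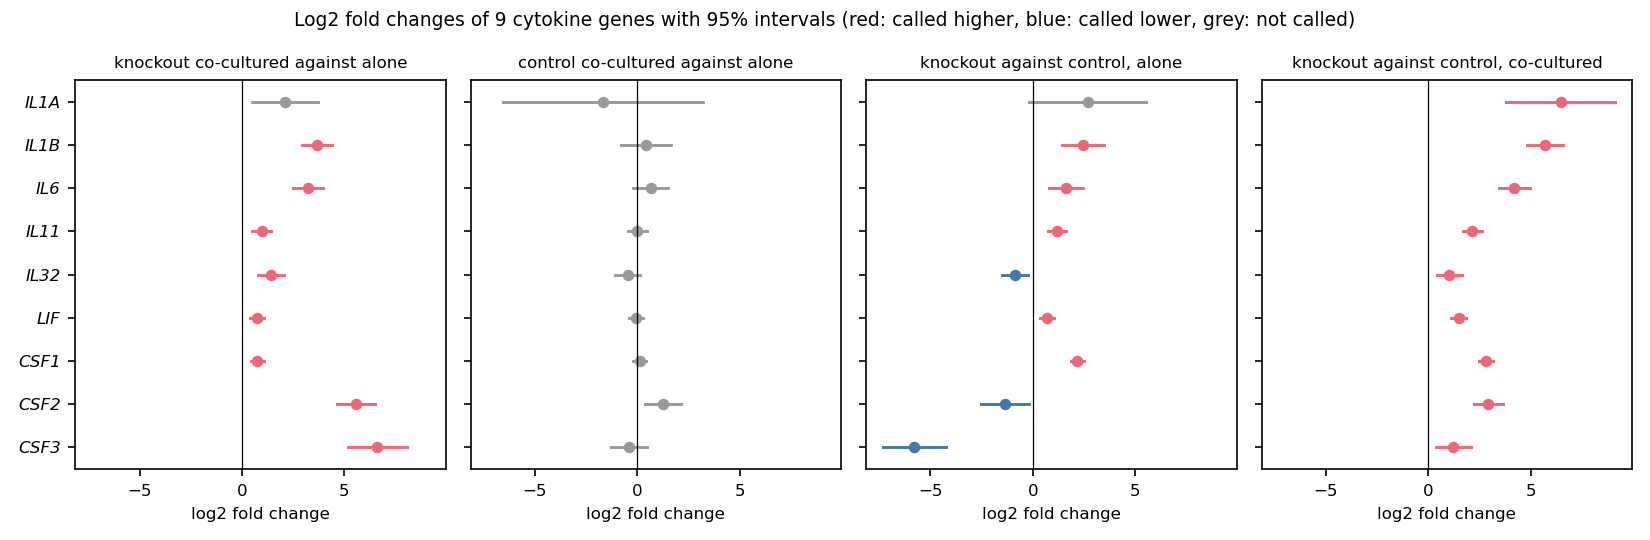
Fitted log2 fold changes of the 9 tested members in 4 comparisons, with 95% intervals. Red marks genes called higher, blue genes called lower and grey genes not called. All points lie right of 0 for co-cultured against lone knockout and for knockout against control in co-culture, and the intervals for co-cultured against lone control cross 0 except for CSF2. Where the lone knockout enters, the fitted value of CSF3 rests on 2 counts.

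Co-culture made no called difference in control cells: edgeR called 0 members and 0 of 16768 genes (0%), and DESeq2 called 0. At an unadjusted p under 0.05, 540 genes (3.22%) and 1 member stood out. That member was CSF2, at 4, 11 and 5 counts alone and 14, 22 and 29 in co-culture (log2 change 1.26, SE 0.41, adjusted p = 1 in edgeR). Its 3 co-cultured libraries lay above the 3 lone ones, as was the case for 4.48% of all genes, with 2.9% separated the other way. The 95% interval of the log2 change in control cells reached 0.44 for IL11, 0.29 for LIF, 0.42 for CSF1, 1.63 for IL1B and 1.51 for IL6. Rises as large as those of IL1B and IL6 in the knockout thus lie outside it. For the remaining tested members it reached 0.15 for IL32, 0.47 for CSF3, 2.14 for CSF2 and 3.21 for IL1A. The fitted IL1A rise of 2.10 in the knockout lies inside that interval.

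The co-culture difference in knockout cells was then set against that in control cells as an interaction. It was positive in 9 of 9 members, beside 8515 of all 16768 tested genes. Called were 5 members, IL1B, IL6, IL32, CSF2 and CSF3, beside 1.51% of all tested genes called higher and 1.80% in either direction. IL1A and IL1B had passed the filter through knockout libraries alone, where they are high, so these counts depend in part on the filter. The 5 values were 3.24 (SE 0.70, adjusted p = 0.0362 in edgeR) for IL1B, 2.57 (SE 0.52, adjusted p = 0.0263 in edgeR) for IL6, 1.89 (SE 0.40, adjusted p = 0.0346 in edgeR) for IL32, 4.31 (SE 0.63, adjusted p = 0.0039 in edgeR) for CSF2 and 7.01 (SE 0.82, adjusted p = 0.00104 in edgeR) for CSF3, the last fitted from the 2 counts of the lone knockout. CSF2 and CSF3 were called whichever of the 12 libraries was left out, CSF2 at 3.72 to 4.87 (lowest without replicate 2 of the lone control) and CSF3 at 6.38 to 9.80 (without replicate 1 and replicate 3 of the lone knockout). IL1B and IL32 kept the call in 4 of these 12 fits and IL6 in 5, with adjusted p-values of at most 0.425, 0.116 and 0.0933 in the others. The number of members called was 2 without replicate 3 of the lone control, replicate 1 or 2 of the co-cultured control, replicate 2 of the lone knockout or replicate 1 of the co-cultured knockout, 3 without replicate 1 or 3 of the lone knockout or replicate 2 of the co-cultured knockout, and 8 without replicate 3 of the co-cultured knockout. IL11, LIF and CSF1 were not called (0.97, 0.78 and 0.66, adjusted p = 0.127, 0.115 and 0.141).

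Dividing CPM by exon length in kilobases lets levels be ranked between genes. In the co-cultured knockout IL11 and LIF led at 48.7 ± 6.42 and 46.98 ± 6.82 CPM per kb (SD, n = 3), and their libraries overlap. CSF1 followed at 24.3 ± 3.33, then IL32 at 10.06 ± 2.28, CSF2 at 9.29 ± 1.10 and IL6 at 8.27 ± 0.673, which overlap one another. IL1B stood at 4.52 ± 0.171 and CSF3 at 1.71 ± 0.150 CPM per kb, IL1A overlapped CSF3 at 0.844 ± 0.880, and IL24 was last at 0.113 ± 0.0526. In the lone knockout the order was LIF (28.6 ± 1.39 CPM per kb), IL11 (25.05 ± 2.40), CSF1 (14.4 ± 0.515) and IL32 (3.76 ± 1.05). IL6 stood at 0.881 ± 0.159 and IL1B at 0.356 ± 0.101. IL1A (0.190 ± 0.0479) and CSF2 (0.185 ± 0.121) overlap, and CSF3 and IL24 were at 0.0183 and 0.0143 CPM per kb. In lone control cells LIF (17.6 ± 2.67) and IL11 (11.09 ± 2.01) also led, but IL32 (6.86 ± 1.67) stood above CSF1 (3.19 ± 0.219), and CSF3 (0.971 ± 0.180) above IL6 (0.286 ± 0.135) without overlap.

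Of 17 receptor and decoy genes listed, 13 were tested, and 1 rose and 0 fell between lone and co-cultured knockout cells, beside 5.97% and 5.4% of all genes (median log2 ratio 0.17 against 0.01). The riser was CSF2RA, the ligand-binding chain for GM-CSF, from 5.53 ± 0.700 to 17.5 ± 0.183 CPM (SD, n = 3; log2 change 1.66, SE 0.20, adjusted p = 0.000271 in edgeR). Its signalling partner CSF2RB had 2 counts in all in the lone and 3 in the co-cultured knockout, and CSF3R, the receptor for CSF3, had 6 and 1. IL1R1, the signalling IL-1 receptor, stood at 19.6 and 10.05 CPM (-0.97, adjusted p = 0.114), IL6ST at 29.3 and 12.8 CPM (-1.20, adjusted p = 0.119) and LIFR at 2.49 and 0.866 CPM (-1.54, adjusted p = 0.0627). OSMR, the receptor chain for oncostatin M, stood at 71.3 and 77.2 CPM (0.11, adjusted p = 0.794). IL6R, IL11RA, IL1RAP, IL1R2, SIGIRR, IL20RB, IL22RA1 and CSF1R were not called either, with fitted values between -1.18 and 1.32. The count of lower receptors depended on the method and on replicate 3 of the co-culture. With all libraries, IL1R1, IL6ST and LIFR were called lower with GC offsets (-0.58, -0.68 and -0.97, adjusted p = 0.0236, 0.0106 and 0.0264), with no low-count filter (0.0174, 0.000373 and 0.0018) and in DESeq2 (0.0425, 0.0395 and 0.0189), and OSMR was called higher with GC offsets (0.39, 0.0184). Without replicate 3, IL6ST, LIFR and IL1R1 were called lower, at -2.06, -2.45 and -1.59 (adjusted p = 0.00101, 0.00108 and 0.00144 in edgeR), and IL22RA1 was called higher at 0.73 (0.0329).

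Against the control, lone knockout cells were higher in 6 of the 13 receptors and lower in 2, beside 28.0% and 28.6% of all genes. The 6 were IL1R1 (log2 change 2.46, SE 0.41, adjusted p = 0.000258 in edgeR), IL6ST (2.15, SE 0.50, adjusted p = 0.00286 in edgeR), IL1RAP (1.54, adjusted p = 0.0171), IL6R (1.35, adjusted p = 0.000247), OSMR (0.92, adjusted p = 0.00937) and CSF2RA (0.52, adjusted p = 0.0424). SIGIRR, a negative regulator of IL-1 signalling, fell by 0.94 (adjusted p = 0.00472), a call that GC offsets ended (-0.17, adjusted p = 0.13), and IL22RA1, a chain of the receptor for IL24, fell by 1.14 (adjusted p = 0.0015). Without 1 library in turn the adjusted p rose to at most 0.156 for CSF2RA, whose call held in 2 of 6 such fits and was lost under GC offsets (0.167), DESeq2 (0.0548), its size factors (0.077), no filter (0.226) and only the groups compared (0.0859), 0.0567 for IL1RAP (4 of 6) and 0.0557 for OSMR (5 of 6). GC offsets gave 1.51 for IL6ST and 0.87 for IL1RAP, the latter with an adjusted p of 0.046, and of 0.051 with the replicate block added.

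Replicate 3 of the co-cultured knockout stood apart for AT-rich transcripts, which touches IL1A and several receptors. Its log2 CPM exceeded the mean of replicates 1 and 2 by 2.42 for IL1A (39.1% GC), 1.85 for IL6ST (37.55%), 1.68 for LIFR (39.3%), 1.39 for IL1R1 (42.3%) and 1.29 for IL1RAP (39.8%). For the 8 called members, with 45.8% to 60.5% GC, the difference lay between -0.58 (IL32) and 0.20 (CSF2). With GC offsets all 9 tested members were called higher in the co-cultured knockout.

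**Figure D4:**
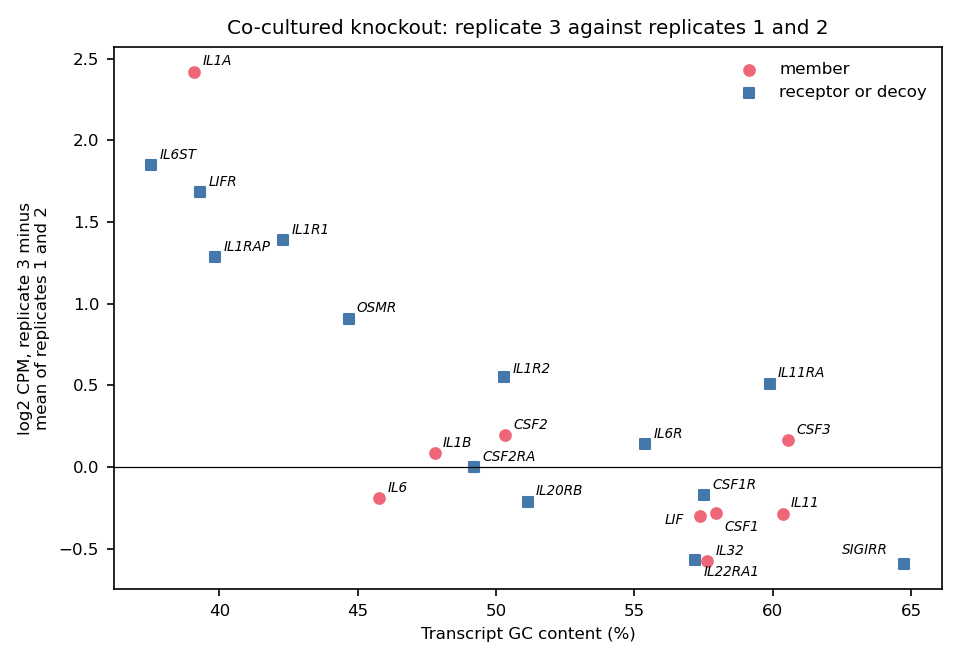
For tested members (circles) and receptors (squares), the log2 CPM of replicate 3 minus the mean of replicates 1 and 2 of the co-cultured knockout, against transcript GC content in percent. IL1A and 4 AT-rich receptors lie more than 1 above 0, and the other members lie within 0.58 of it.

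Other genes of these pathways were counted from 4 further lists. Of 32 other cytokines and binding partners 9 were tested, and 1 rose in co-cultured over lone knockout cells, beside 5.97% of all genes: EBI3, a subunit of IL-27 and IL-35, from 3.71 to 12.2 CPM (log2 change 1.72, SE 0.30, adjusted p = 0.00393 in edgeR). CLCF1, a gp130 ligand, stood at 55.9 and 79.4 CPM (adjusted p = 0.0711, but 0.0409 in DESeq2 and 0.0119 without replicate 3 of the co-culture) and IL12A at 0.632 and 1.13 CPM (adjusted p = 0.098, but 0.0189 with GC offsets). CTF1, another gp130 ligand, was lower in lone knockout than in lone control cells, by -3.32 (adjusted p = 1.24e-06 in edgeR, and -2.64 with GC offsets), while CLCF1 was higher by 1.95 (adjusted p = 1.57e-06 in edgeR). IL3, IL4, IL5, IL10, IL13, IL22, IL26 and IL27 had at most 3 counts in any group.

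Of 13 genes for the maturation and release of IL-1, 9 were tested and 1 rose between lone and co-cultured knockout cells, beside 5.97% of all genes. It was the inflammatory caspase CASP4, from 5.51 to 12.8 CPM (log2 change 1.21, adjusted p = 0.017 in edgeR). Its adjusted p was 0.0558 without replicate 2 and 0.0661 without replicate 3 of the lone knockout, and 0.0568 without replicate 1 of the co-culture. NLRP1, an inflammasome sensor, and GSDMD, the pore former through which mature IL-1 leaves cells, were not called (0.78 and 0.52, adjusted p = 0.071 and 0.148), but both were called without replicate 3 of the co-culture (0.0234 and 0.0217), NLRP1 in DESeq2 (0.0198) and GSDMD with GC offsets (0.00899). CASP1, the protease that cleaves pro-IL1B, stood at 0.356 and 0.992 CPM (adjusted p = 0.203). Between lone knockout and control cells GSDMD fell by 1.92 and the calpain CAPN1 by 1.25, while CAPN2 rose by 2.31 (adjusted p = 1.79e-05, 0.000367 and 5.27e-07 in edgeR). With GC offsets GSDMD was at -1.12 and CAPN1 at -0.66, both still called.

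Among 19 tested genes of signal relay and feedback, 4 rose with co-culture of the knockout and 0 fell, beside 5.97% and 5.4% of all genes. IRAK2, an adaptor kinase of the IL-1 receptor, rose from 73.1 to 175 CPM (log2 change 1.26, SE 0.12, adjusted p = 4.8e-05 in edgeR). The feedback inhibitors SOCS1 and SOCS3, which JAK and STAT signalling induces, rose from 1.16 to 4.33 and from 41.6 to 69.2 CPM (1.91 and 0.74, adjusted p = 0.00709 and 0.0198 in edgeR), and STAT5B from 94.6 to 130 CPM (0.46, adjusted p = 0.0437 in edgeR). SOCS3 lost its call without replicate 1 or 2 of either knockout group (adjusted p = 0.0947, 0.0782, 0.0814 and 0.0828). In lone knockout against lone control cells IRAK2 and STAT5B were higher by 0.95 and 1.07 (adjusted p = 1.87e-05 and 2.5e-05 in edgeR) and SOCS1 lower by -2.77 (adjusted p = 4.34e-05 in edgeR).

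Of 7 genes that set the decay or stability of cytokine mRNA, 2 rose and 1 fell between lone and co-cultured knockout cells, beside 5.97% and 5.4% of all genes. ZC3H12A (regnase-1), an RNase that degrades IL6 mRNA, rose from 56.1 to 260 CPM (log2 change 2.21, SE 0.20, adjusted p = 4.3e-05 in edgeR), and its interaction was called at 2.06 (SE 0.27, adjusted p = 0.00227 in edgeR). ZFP36 (tristetraprolin), which binds AU-rich elements and speeds decay, rose from 21.9 to 37.5 CPM (0.77, SE 0.14, adjusted p = 0.00524 in edgeR). RC3H1 (roquin-1) fell by 1.496 (SE 0.41, adjusted p = 0.0379 in edgeR), and missed the threshold in each fit without 1 library except that without replicate 3 of the co-culture, which gave -2.11, with an adjusted p of at most 0.157 in the others. HNRNPD and ELAVL1, further AU-rich element binders, were not called here (adjusted p = 0.071 and 0.492) and were lower in lone knockout than in lone control cells by -0.76 and -0.61 (adjusted p = 0.000218 and 0.00101 in edgeR), while ZFP36L1 was higher by 0.87 (adjusted p = 0.000353 in edgeR).

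**Figure D5:**
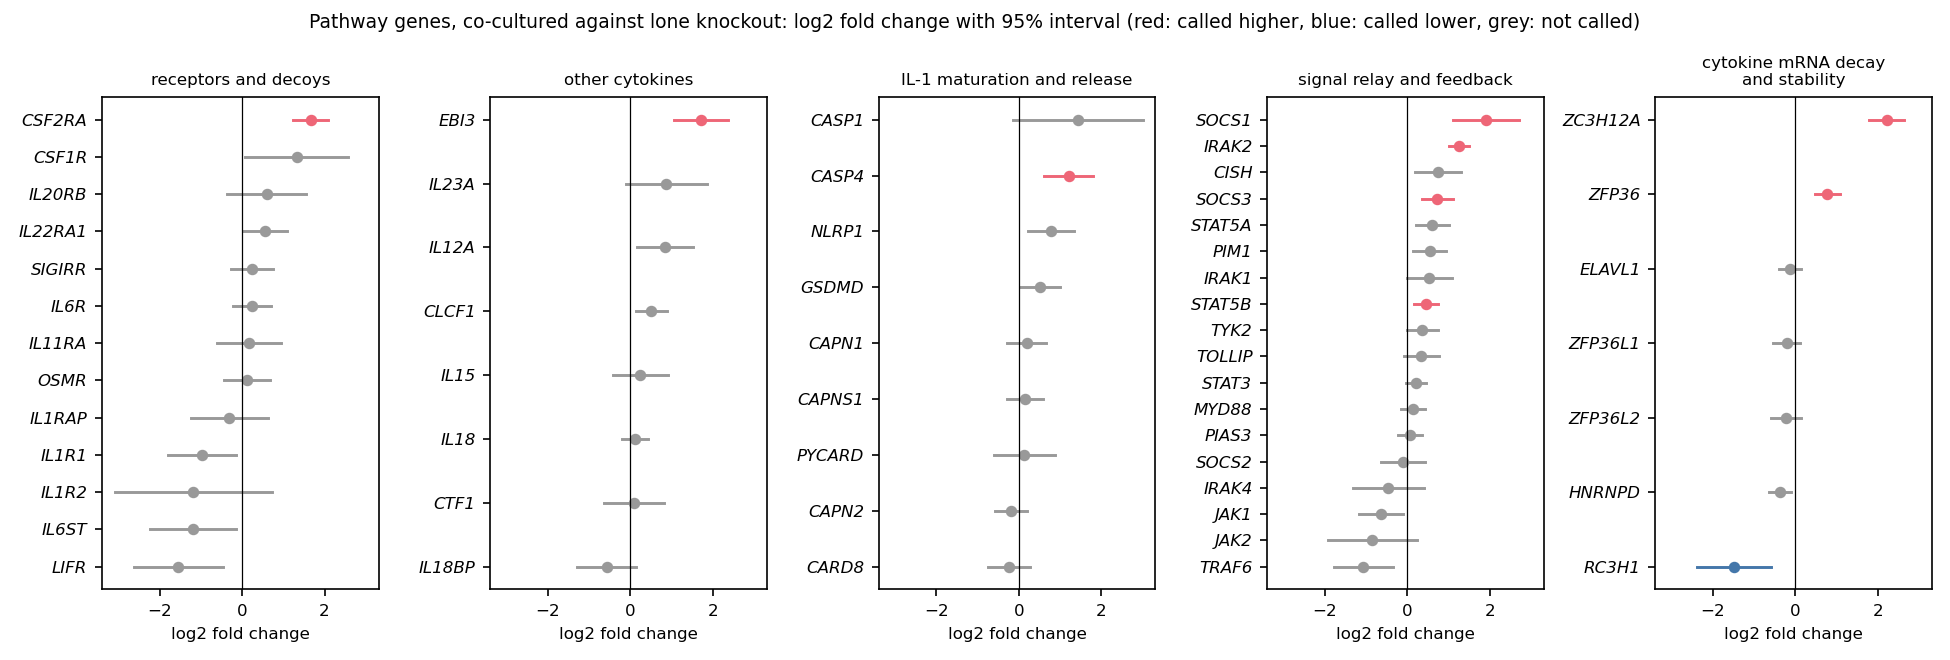
Log2 fold changes with 95% intervals for tested genes of 5 pathway lists in co-cultured against lone knockout cells. Red marks genes called higher, blue the 1 gene called lower (RC3H1) and grey genes not called. Many of the grey intervals cross 0, and ZC3H12A at 2.21 is the highest point of its panel.

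The AU-rich nonamer TTATTTATT, a letter pattern searched after the values were known, occurs in the longest annotated 3′ UTR of 4 members: 6 times in IL11, 3 in CSF2, and 2 each in IL1B and LIF. At least 1 copy is found in 8.22% of 19099 genes with a 3′ UTR, at least 2 in 1.96% and at least 3 in 0.691%. IL1A, IL6, IL24, IL32, CSF1 and CSF3 hold 0 copies, so members with and without the nonamer were among those that rose. The shorter AU-rich core ATTTA does occur in most of these: 7 times in CSF3, 6 in IL6, 5 in IL1A, 4 in CSF1, 3 in IL24 and 0 in IL32. Its share over all genes was not counted.

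For each member but IL24, the genes whose log2 CPM followed it most closely were looked up among 11156 candidates over the 12 libraries, which share 4 groups and their depth. CSF2 was followed by the chemokines CXCL3 (r = 0.965) and CXCL1 (r = 0.963), and CXCL1 averaged 141 and 168 CPM in lone and co-cultured control and 69.7 and 1118 CPM in lone and co-cultured knockout cells. CSF3 was followed by LCN2, encoding lipocalin-2, an iron-scavenging protein of inflamed epithelium (r = 0.982), at 125, 104, 15.6 and 215 CPM in the same order, and by PLAT (r = 0.966). IL32 ran with NMB and MAN2B1 (r = 0.969 and 0.962), which were also lowest in the lone knockout. IL6 ran with GBP2 and B2M (r = 0.990 and 0.983), and B2M, the light chain of MHC class I, stood at 156, 198, 216 and 495 CPM.

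Like IL6, the members CSF1, IL11, LIF, IL1B and IL1A had higher mean levels in lone knockout than in control cells and the highest in the co-cultured knockout. So did the nearest genes of IL6 and of these members. CSF1 was matched by MGLL and CCDC9B (r = 0.998 for both), with MGLL at 65.5, 66.9, 233 and 350 CPM. COL16A1 was the nearest gene of both IL11 and LIF (r = 0.992 and 0.993), at 4.05, 3.69, 8.99 and 20.6 CPM, and IL11 and LIF themselves correlated at r = 0.995. IL1B ran with DERL2 and XDH (r = 0.990 and 0.988), and IL1A with the cell death genes CASP8 and MLKL (r = 0.966 and 0.957). Among the members, CSF1 and CSF3 had the lowest correlation, r = -0.158 over the 12 libraries. CSF3 and IL32 correlated at r = 0.806.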

How the data were processed

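RNA-seq was measured in 12 libraries of 4 groups, mapped to groups by their titles. Per the submitters' processing notes, the authors used FastQC, STAR 2.7.9a and featureCounts on GRCh38, with R 4.2.1 and DESeq2 1.36.0. The annotation release and strand setting are not given in the sources used here, and the labels' protocols give 500 ng of total RNA (miRNeasy) and the NEBNext Ultra RNA kit. The authors deposited raw counts, whole numbers per Ensembl gene, and these were used as deposited.

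Symbols were matched for 42045 of 61541 identifiers, and positions, exon lengths and GC content came from GENCODE 29 (58366 identifiers). filterByExpr over the 4 groups (minimum count 10, here 0.467 CPM, and total 15) kept 16768 genes. Of the members, IL24 failed it, IL1A passed through knockout libraries alone, IL1B through the knockout groups and CSF2 through the co-cultured groups, so counts over tested members are not counts over all 10. edgeR 4.0.16 in R 4.3.3 scaled libraries by TMM, fitted 1 model of 4 group means (biological coefficient of variation 22.1%) and ran the robust quasi-likelihood F-test, with Benjamini-Hochberg adjustment over all genes tested in each of 5 comparisons. Calls were made at adjusted p-values under 0.05. Fold changes are log2, each ± is the SD over 3 libraries, and CPM are TMM-scaled. Alternatives were DESeq2 1.42.0, its size factors, library size only, no low-count filter, a replicate block, GC offsets, fits of the compared groups only, and fits without 1 library.

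No 2 replicates were a repeated library (chi-square per gene 8.02 to 127). The members, lists and tests were chosen with earlier results of these data known. Genes named are all members, the tested receptors, and in each other list the 3 genes with the smallest p in co-cultured against lone knockout and the 3 in lone knockout against control, apart from genes that are not reported here. Nearest genes are the 2 with the highest Pearson r of log2 CPM (prior count 2) among genes with at least 5 CPM in 1 group. CASP1, CXCL1's levels, CD14, CD68, the levels of single epithelial markers, the fibroblast sum and the untested cytokines were named after their values were seen.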

Additional observations from a re-analysis of the deposited data

Results flagged for a closer look

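For 5 members the effect of co-culture differed between knockout and control cells by a test of the difference itself, the interaction in edgeR's quasi-likelihood fit. The log2 differences were 3.24 for IL1B, 2.57 for IL6, 1.89 for IL32, 4.31 for CSF2 and 7.01 for CSF3 (adjusted p = 0.0362, 0.0263, 0.0346, 0.0039 and 0.00104). Over all tested genes, 1.51% were called higher in this test. In each of the 5, the 3 co-cultured knockout libraries lay above the 3 lone ones, as for 16.7% of all tested genes. No member was called between the control groups, where 0 of 16768 genes were called. There the co-cultured libraries of CSF2 also lay above the lone ones (log2 change 1.26, SE 0.41). CSF2 and CSF3 kept the call without any 1 of the 12 libraries, and the other 3 lost it in 7 or 8 of those fits. The value for CSF3 rests on 2 counts in the lone knockout. What set the libraries labelled control apart in CDKN2A and MTAP was not tested as a part of these differences.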

How the results depend on the processing

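The number of members called cannot exceed 9, so its range cannot be set against that of genes called. Between co-cultured and lone knockout cells 8 or 9 members were called under each of the 8 settings that kept all libraries, the ninth being IL1A, and 5 to 8 without 1 library (5 without replicate 1 of the lone knockout). The number of genes called there was 1907 and became 3340 with no low-count filter, 5029 with GC offsets, 3347 with DESeq2, 664 with only the groups compared, and 536 to 5681 without 1 library, the highest without replicate 3 of the co-culture. The interaction went from 301 genes to 1342 with no low-count filter, 1554 with GC offsets and 830 with DESeq2, and to 117 to 3623 without 1 library, with 2 to 8 members. Between the control groups no low-count filter gave 2 genes in place of 0. Library size only moved the median log2 difference over all genes from 0.09 to 0.24 for lone knockout against control and from 0.01 to -0.11 for the interaction.

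Same-numbered replicates did not deviate together in each pair of groups (correlations from -0.540 to 0.491, and 8 of 24 samples closest to their own number), so the numbers were taken as names. With a replicate block, 1080 genes were called between co-cultured and lone knockout cells and 179 for the interaction, and with the replicate block and GC offsets together 4298 and 1009. The block took the call from IL6 in the interaction (adjusted p = 0.0582), from CSF2 in lone knockout against control (0.0532) from CSF2RA there (0.0697) and from RC3H1 in co-cultured against lone knockout cells (0.064), and from no other member.

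Signs changed only in values that the TMM fit did not call. In co-cultured against lone control cells IL11, at -0.01, became 0.0538 with library size only, 0.0159 with no low-count filter, 0.13 with GC offsets, 0.13 with GC offsets and the replicate block, 0.0076 with only the groups compared and -0.16 to 0.21 without 1 library. LIF, at -0.06, became 0.0013 with GC offsets, 0.0047 with the block added and -0.18 to 0.0607 without 1 library, and IL1A ranged from -3.49 to 1.86. For lone knockout against control, IL11RA (-0.19) became 0.0159 with library size only, 0.40 with GC offsets, 0.38 with the block added and -0.57 to 0.0848 without 1 library, and IL20RB (-0.10) became 0.0692 with library size only and -0.38 to 0.0563. For co-cultured against lone knockout cells, IL1RAP (-0.31) became 0.23 with GC offsets, 0.22 with the block added and -0.90 to 0.0255, IL11RA (0.17) became -0.052, -0.0441 and -0.11 to 0.54, and OSMR (0.11) ranged from -0.25 to 0.30. The causes were not tested. Counts of 0 to 5 a library limit IL24, CSF2 and CSF3 in the lone knockout and IL1A in control cells.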
